A study of Homo sapiens with 4 samples.

Results

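The genes of the proteasome, the large protease that degrades ubiquitin-tagged proteins, were examined at their promoters in HEK293T cells with and without overexpression of MORC2, a DNA-binding ATPase that acts with the HUSH silencing complex. The members were all protein-coding genes with a symbol that starts with PSMA to PSMG followed by a digit and has no hyphen. There were 50 of them among the 28775 promoters of the count table, and 49 were among the 23407 promoters with enough counts to be tested. Of the 50, 48 encode proteasome subunits, assembly factors or regulators, while PSMC3IP, a meiotic recombination protein, and PSME3IP1, a protein that binds PSME3, came in by symbol alone. Accessibility was measured by ATAC-seq, in which the transposase Tn5 inserts sequencing adapters into open chromatin, in HEK293T, a transformed human embryonic kidney cell line. The control group was 2 libraries of cells given lipofectamine, the transfection lipid, and the overexpression group was 2 libraries of cells transfected for several days with a plasmid for MORC2, which the study's methods describe as a fusion to the fluorescent protein meGFP. Both groups were wild type for MORC2 and so kept their own copies of the gene. Whether control cells were given an empty plasmid is not in the labels, and neither is the share of cells that took up MORC2. The comparison asked whether promoter accessibility differed when MORC2 was in excess.

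The 26S proteasome consists of a 20S core capped by 19S particles. In the core, alpha subunits form the outer gated rings and beta subunits the inner rings, where PSMB5, PSMB6 and PSMB7 carry the proteolytic sites. Interferon induces PSMB8, PSMB9 and PSMB10, which take their places in the immunoproteasome, and in the thymus PSMB11 takes the place of PSMB5. The 19S cap binds ubiquitin, removes it and unfolds the substrate with a ring of ATPases. Most of these genes are expressed in every cell, and the transcription factor NRF1 (NFE2L1) raises them together through antioxidant response elements when proteasome activity is short.

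The 4 libraries held 3734519 to 10255182 promoter counts. Of these, 51.9 and 55.6% were mitochondrial in the control and 74.7 and 73.8% after overexpression, and the nuclear counts were 3675088 to 4928862 in the control and 979895 to 1826951 in the overexpression group. The overexpression values below therefore rest on fewer counts, with a median of 83 and 48.5 counts per proteasome gene against 230 and 183 in the control. Levels are given as CPM, counts put on 1 common scale of library size by the TMM method, which sets the bulk of promoters equal between libraries. Of 5 kidney developmental markers, SALL1 was at 32.0 CPM in the control, LHX1 at 12.7, WT1 at 11.1, PAX2 at 3.59 and EYA1 at 1.74. The 9 markers of blood, liver, skin and muscle ran from 0.226 (ALB) to 9.77 (the liver gene APOA2). SALL1, LHX1 and WT1 were above all of these 9. APOA2, MYOD1 (8.21), MYOG (6.38) and SPI1 (3.68) were in turn above EYA1 and PAX2. The promoter levels thus set some of the kidney markers apart but not all of them. The 4 genes open in every cell ran from 32.0 to 56.1. Of the 15 markers that could be tested, only the skin gene KRT14 passed the edgeR threshold, at a log2 fold change of 1.16 and adjusted p = 0.0218. The assay was made on bulk nuclei, so fewer cells with an open promoter and less opening per cell cannot be told apart.

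Promoter sequences from RefSeq, on GRCh38.p14, were matched to 44 of the 50 members, and the entries for PSMA7, PSMB1, PSMB6, PSMB7, PSMD4 and PSMG3 are missing. Shown here are the 250 bases before the listed start farthest upstream, 5′ to 3′ on the gene's strand. These are for the catalytic subunits that have an entry, whose control levels were far apart, and for PSMD3 and PSME2, the members with the smallest p-values. They lie at chr14:23035221-23035470 on the minus strand for PSMB5, chr6:32844680-32844929 on the minus strand for PSMB8, chr6:32853942-32854191 on the plus strand for PSMB9, chr16:67936851-67937100 on the minus strand for PSMB10, chr14:23041962-23042211 on the plus strand for PSMB11, chr17:39980557-39980806 on the plus strand for PSMD3 and chr14:24146611-24146860 on the minus strand for PSME2. Capitals mark matches, on either strand, to TGACNNNGC (the core of the antioxidant response element), CCAAT (the NF-Y box), GGGCGG (the GC box), CCGGAA (the ETS core) and GAAANNGAA (a core of interferon response elements).
PSMB5: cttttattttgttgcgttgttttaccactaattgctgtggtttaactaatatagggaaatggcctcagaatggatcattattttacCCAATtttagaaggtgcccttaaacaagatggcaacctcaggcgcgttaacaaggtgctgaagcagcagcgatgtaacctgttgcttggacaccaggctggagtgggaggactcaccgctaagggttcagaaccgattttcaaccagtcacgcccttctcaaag
PSMB8: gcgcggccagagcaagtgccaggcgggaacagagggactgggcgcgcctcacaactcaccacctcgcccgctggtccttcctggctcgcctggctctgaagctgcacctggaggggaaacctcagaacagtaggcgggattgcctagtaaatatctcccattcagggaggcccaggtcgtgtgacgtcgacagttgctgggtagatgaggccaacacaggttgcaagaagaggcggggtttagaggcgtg
PSMB9: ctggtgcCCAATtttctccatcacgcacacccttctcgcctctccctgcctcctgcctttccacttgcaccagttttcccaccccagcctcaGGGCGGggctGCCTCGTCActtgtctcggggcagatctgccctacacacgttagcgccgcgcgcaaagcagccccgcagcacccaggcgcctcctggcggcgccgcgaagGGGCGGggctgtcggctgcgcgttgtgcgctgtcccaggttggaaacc
PSMB10: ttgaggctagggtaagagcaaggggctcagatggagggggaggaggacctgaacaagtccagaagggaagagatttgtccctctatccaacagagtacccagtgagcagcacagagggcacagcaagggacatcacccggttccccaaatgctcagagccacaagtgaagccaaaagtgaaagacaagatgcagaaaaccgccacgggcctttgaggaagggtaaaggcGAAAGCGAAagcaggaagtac
PSMB11: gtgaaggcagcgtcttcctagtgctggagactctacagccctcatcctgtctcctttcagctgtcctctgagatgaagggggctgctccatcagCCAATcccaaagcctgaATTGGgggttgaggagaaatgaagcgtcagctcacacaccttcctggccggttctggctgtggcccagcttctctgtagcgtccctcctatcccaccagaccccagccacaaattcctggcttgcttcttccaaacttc
PSMD3: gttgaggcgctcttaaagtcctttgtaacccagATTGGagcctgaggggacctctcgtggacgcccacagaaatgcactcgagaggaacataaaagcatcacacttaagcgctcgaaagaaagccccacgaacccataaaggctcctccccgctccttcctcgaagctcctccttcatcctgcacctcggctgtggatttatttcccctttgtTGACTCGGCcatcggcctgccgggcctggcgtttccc
PSME2: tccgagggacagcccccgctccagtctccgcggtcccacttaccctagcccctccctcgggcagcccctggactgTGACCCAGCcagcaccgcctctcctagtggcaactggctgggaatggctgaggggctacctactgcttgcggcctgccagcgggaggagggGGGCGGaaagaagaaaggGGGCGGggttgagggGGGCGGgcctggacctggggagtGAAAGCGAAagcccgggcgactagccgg

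PSMD3 held an antioxidant response element core 37 bases before its start, and PSMB9 and PSME2 held one at 148 and 175 bases. PSMB10 and PSME2, both interferon-inducible genes, held the interferon response core at 21 and 28 bases. PSMB8 and PSMB9, which interferon also induces, did not hold it. PSMB8 held none of these motifs in the stretch shown, and CCGGAA was in none of the 7. The GAAANNGAA motif was added after the sequences had been seen. A match is a description of the letters and not of a bound site.

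In windows of 300 bases, from 250 before to 50 after the start, the antioxidant response element core was found in 13 of 44 members (29.6%) against 14.3% of the promoters of all 19554 genes with an entry. The ETS core was found in 20 members (45.5% against 21.0%), CCAAT in 21 (47.7% against 36.2%) and the GC box in 30 (68.2% against 53.5%). TATAAA was found in 5 members (11.4% against 10.2%), the interferon core in 7 (15.9% against 7.51%), and the CREB site TGACGTCA in 0 (against 2.38%). The 7 with the interferon core were PSMA4, PSMB4, PSMB10, PSMC2, PSME1, PSME2 and PSMG4. These backgrounds include promoters too low in counts to be tested. Over the 17002 windows of promoters tested, the shares were 14.6% for the antioxidant core, 23.1% for ETS, 35.3% for CCAAT and 59.5% for the GC box. For TATAAA, the interferon core and the CREB site they were 7.68, 6.66 and 2.61%. Proteasome promoters were of ordinary base composition, with a median GC content of 62.0% against 61.3% and a median of 22 CpG sites against 20. The median log2 fold change was −0.03 for the 13 members with the antioxidant response element core and −0.03 for the 30 tested members without it.

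Together the proteasome promoters took a like share of the nuclear counts in every library. The control share was 0.260 and 0.262%, and the overexpression share 0.261 and 0.255%. The mean was 0.261% ± 0.00139 (SD, n = 2) in the control and 0.258% ± 0.00459 (SD, n = 2) after overexpression, a ratio of 0.990, and the groups overlapped. With 2 libraries in each group, the smallest p an exact two-sided permutation test can give is 0.333, so no such test is given for single values.

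In the control cells proteasome promoters were mostly open above the middle of the table. The median member was at 17.1 CPM against 12.1 for all promoters tested, 36 of the 50 members lay above that median, and the median member stood at percentile 63.0 of the promoters tested. The highest were PSME2 (47.3 CPM), a subunit of the interferon-inducible PA28 activator, PSMD10 (46.8 CPM), an assembly chaperone of the 19S base, and PSMA5 (45.8 CPM), an alpha ring subunit. These 3 did not differ beyond their spread, since PSME2 ran from 46.0 to 48.5, PSMD10 from 43.8 to 49.9 and PSMA5 from 42.5 to 49.1 between the control libraries. Only 6 members were under 5 CPM, namely PSMA6 (0.872), PSMA8 (1.20), PSMD5 (1.49), PSMB8 (2.81), PSMF1 (3.06) and PSMB11 (3.59).

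**Figure D1:**
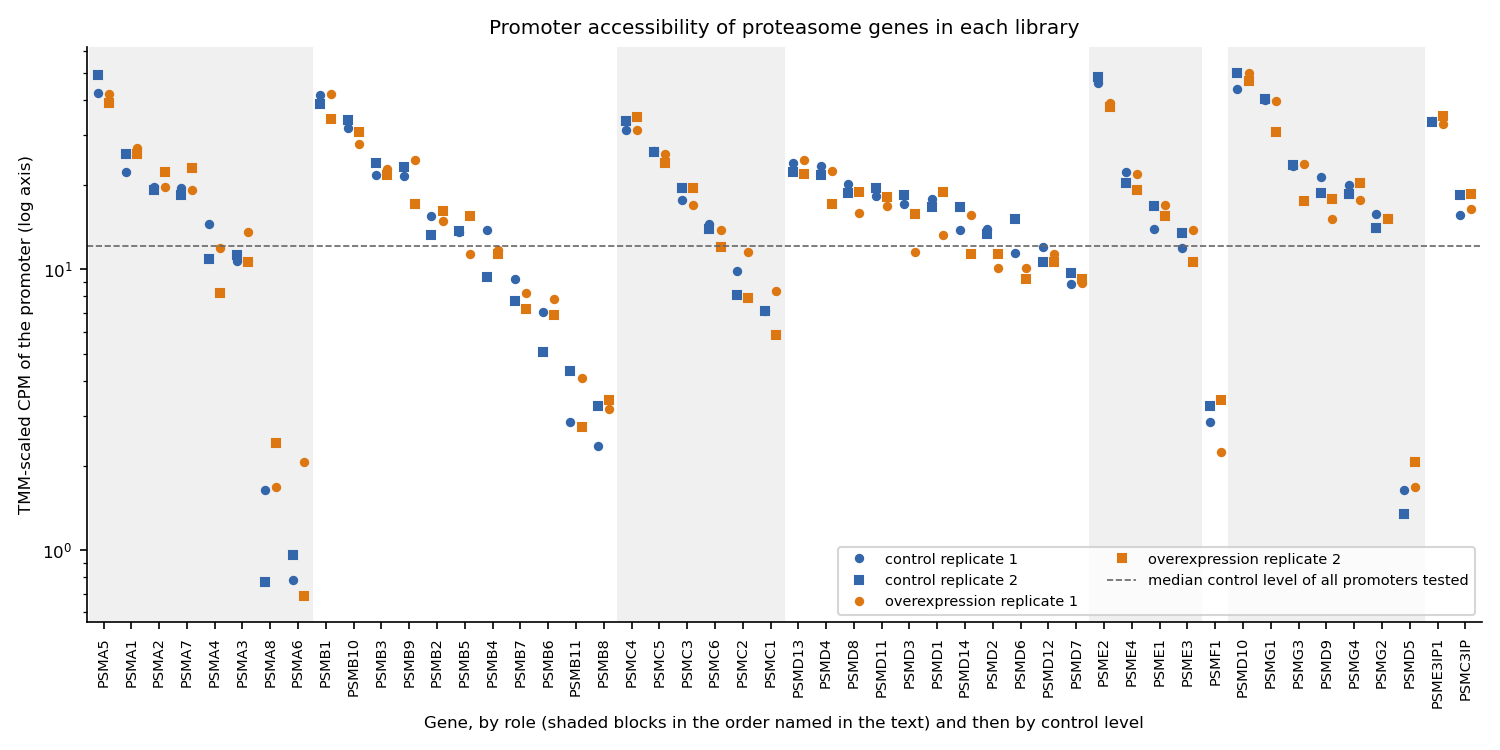
TMM-scaled CPM (log axis) of each of the 50 proteasome gene promoters in each of the 4 libraries, grouped by role, with 1 point per library and the control and overexpression libraries in different colours and a dashed line at the median control level of all promoters tested. The points of most genes lie close together, and PSMA6, PSMA8, PSMD5, PSMB8, PSMF1 and PSMB11 stand below 5 CPM in the control.

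No proteasome gene promoter passed the threshold between overexpression and control. By edgeR's quasi-likelihood test, 0 of 49 had an adjusted p under 0.05, where 2.47% of all promoters tested did so in either direction and 1.3% in the lower direction. DESeq2 called 0 too, among the 6 members to which it gave an adjusted p and, without its independent filtering, among all 49. At an unadjusted p under 0.05 there were 5 members lower and 0 higher, against a background of 8.57% lower and 8.66% higher, which is 10.2% of the members in the lower direction. The 5 were PSMD3, PSME2, PSMD6, PSMD9 and PSMD2.

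In 11 members, or 22.4%, neither overexpression library reached the lower control, which held for 24.9% of all promoters. Both lay above for 3 members (PSMA1, PSMA8 and PSMD5), or 6.12%, against 24.8% of all promoters. The groups overlapped for the other 35 members tested. The fitted change was lower for 29 members and higher for 20, so that 59.2% were lower against 48.6% of all promoters tested. Their median log2 fold change was −0.03, against 0.0099 for all promoters tested, and they ran from −0.43 (PSMD3) to 0.61 (PSMA8).

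Under TMM scaling the intervals bounded how much could have changed. Their errors come from a trend over all promoters by level, not from how well a promoter's own replicates agreed. The 95% interval of the log2 fold change held 0 for 44 of 49 members. A fall by 1 on the log2 scale lay outside the interval of all 49, the lowest bound being −0.90 for PSMF1. A rise by 1 lay outside the interval of 47, the exceptions being the low-count PSMA8 (upper bound 1.53) and PSMD5 (upper bound 1.17). With loess on abundance a fall by 1 lay inside the interval of 2 members, PSMF1 (lower bound −1.26) and PSMD5 (lower bound −1.03), and under scaling by library totals inside that of 45.

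**Figure D2:**
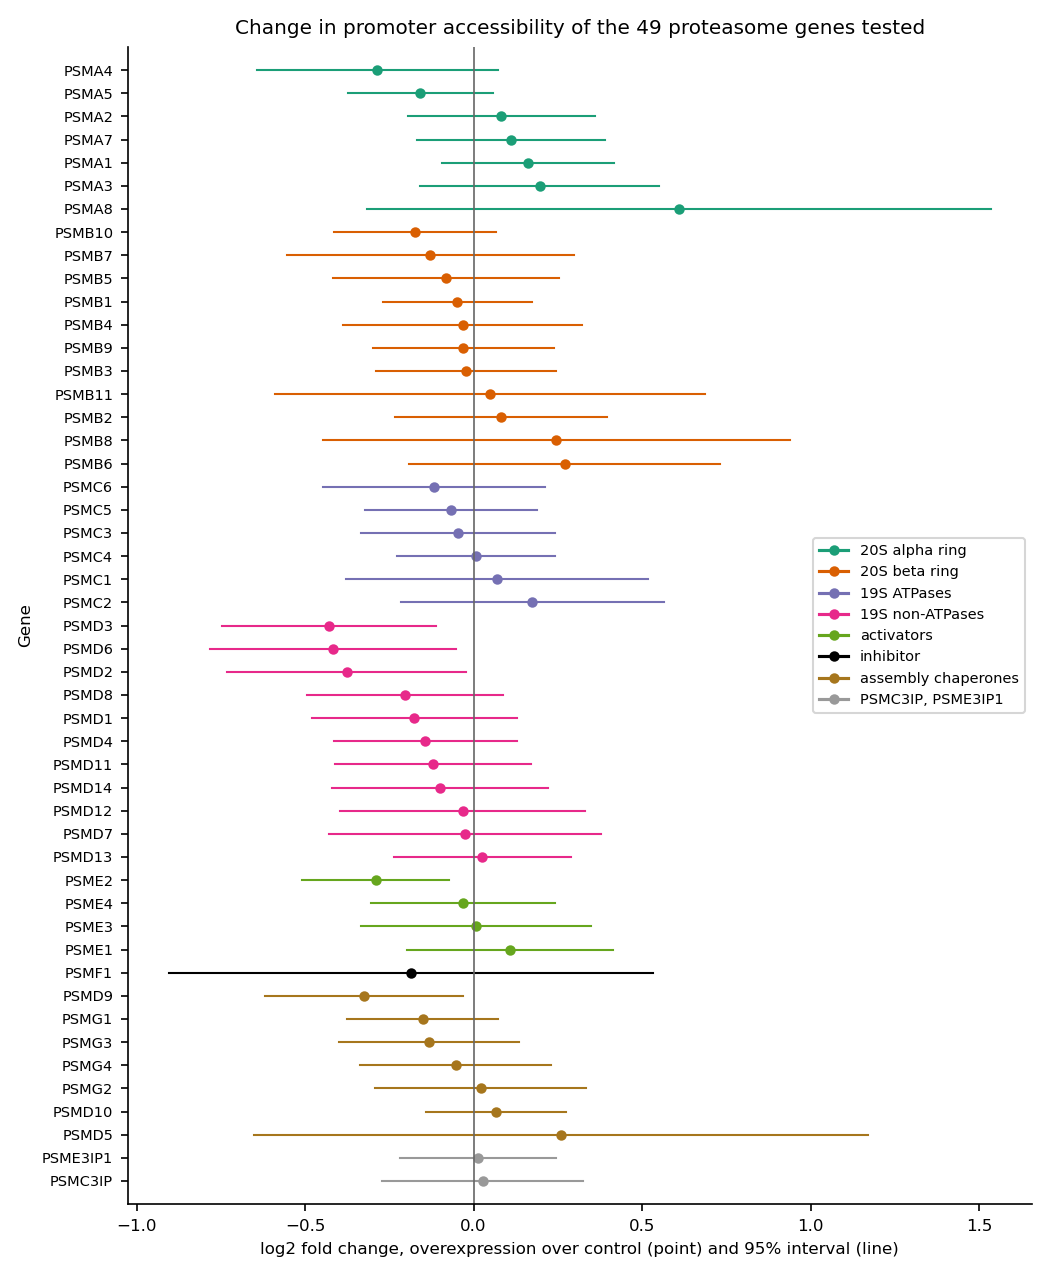
Log2 fold change of overexpression over control (horizontal axis) for the 49 proteasome gene promoters tested (vertical axis), coloured by role, with the edgeR estimate as a point and its 95% interval as a line. The interval crosses 0 for 44 genes, and for PSMD3, PSMD6, PSMD2, PSMD9 and PSME2 it lies below 0.

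Of the 8 alpha ring genes, 7 were tested, and 2 were fitted lower and 5 higher, with a median log2 fold change of 0.11 and none with an unadjusted p under 0.05. Control levels ran from 0.872 to 45.8 CPM. PSMA5 had 42.5 and 49.1 CPM in the control and 41.9 and 39.1 after overexpression, just below both controls, for a log2 fold change of −0.16 (SE 0.110). PSMA1 had 22.2 and 25.7 CPM in the control and 27.0 and 25.7 after overexpression, a log2 fold change of 0.16 (SE 0.130). The lowest of the ring that was tested was PSMA8, the alpha subunit of the testis proteasome, with counts of 23 and 8 in the control and 9 and 7 after overexpression. Its scaled level in both overexpression libraries was above both controls, but its log2 fold change of 0.61 had an SE of 0.473, and it was 1.32 without control replicate 1 and 0.24 without control replicate 2. PSMA4 had 14.5 and 10.9 CPM in the control and 11.9 and 8.22 after overexpression, a log2 fold change of −0.29 (SE 0.182) with overlapping groups.

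PSMA6 was left out by the filter on low counts, having 11 and 10 counts in the control and 11 and 2 after overexpression. It encodes a constitutive alpha subunit of every core particle. In the RefSeq annotation its listed promoter start farthest upstream lies 13759 bp inside the outer end of the gene model. For 5 other members the listed start is also inside it, by 123276 bp for PSMA1, 4543 for PSMG4, 513 for PSMD6, 119 for PSMC2 and 63 for PSMG1. The counted windows span 2 kb around a start site, but which start was used for these genes is not given in the sources used here, and its part in the low count of PSMA6 was not tested.

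Of the 11 beta ring genes, 7 were fitted lower and 4 higher, with a median log2 fold change of −0.03 and control levels of 2.81 to 40.3 CPM. PSMB10 alone had both overexpression libraries below both controls. None had an unadjusted p under 0.05. The 95% interval held 0 in all 11.

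PSMB5, the chymotrypsin-like site, had 13.5 and 13.6 CPM in the control and 11.4 and 15.4 after overexpression, a log2 fold change of −0.08 (SE 0.171). PSMB6, the caspase-like site, had 7.05 and 5.09 CPM in the control and 7.83 and 6.85 after overexpression, a log2 fold change of 0.27 (SE 0.235). PSMB7, the trypsin-like site, had 9.26 and 7.69 CPM in the control and 8.20 and 7.20 after overexpression, a log2 fold change of −0.13 (SE 0.217). In all 3 the overexpression libraries overlapped the controls, and in the control PSMB5 was above PSMB7 and PSMB7 above PSMB6 in both libraries.

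Among the interferon-inducible subunits, PSMB10 had 31.8 and 33.9 CPM in the control and 28.0 and 30.8 after overexpression, a log2 fold change of −0.17 (SE 0.123). PSMB9 had 21.4 and 23.2 CPM in the control and 24.4 and 17.1 after overexpression, a log2 fold change of −0.03 (SE 0.137). PSMB8 was far less open, with counts of 33 and 34 in the control and 17 and 10 after overexpression, or 2.35 and 3.27 against 3.17 and 3.43 CPM, and a log2 fold change of 0.25 (SE 0.353). The groups overlapped for PSMB8 and PSMB9 and did not for PSMB10. The thymic PSMB11 had 2.85 and 4.33 CPM in the control and 4.10 and 2.74 after overexpression, a log2 fold change of 0.05 (SE 0.326), and in the control it overlapped PSMB8.

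Openness of the inducible promoters relative to the constitutive ones, taken within each library, went both ways. PSMB10 was 3.43 and 4.41 times PSMB7 in the control and 3.41 and 4.29 times after overexpression. PSMB9 was 3.04 and 4.55 times PSMB6 in the control and 3.12 and 2.50 times after overexpression. PSMB8 in contrast was 0.174 and 0.239 times PSMB5 in the control and 0.279 and 0.222 times after overexpression. PSMB9 and PSMB10 were thus the more open of their pairs and PSMB8 the less open in all 4 libraries, and for each pair the ratios of the groups overlapped. Each promoter is a window of the same 2 kb, but other differences between windows were not corrected for, which limits comparisons of level between genes. Which start was used for PSMB5 and PSMB8, with 2 listed starts each, is not given. The PSMB9 window had nearly the same counts as that of its neighbour TAP1, described below, so its ratio to PSMB6 is not a measure of PSMB9 alone.

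**Figure D3:**
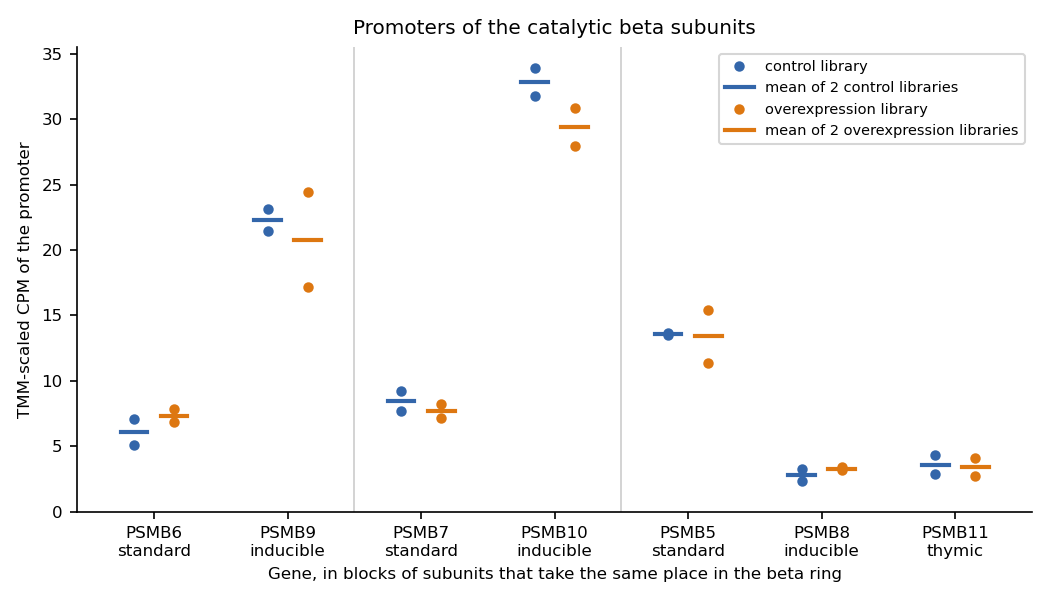
TMM-scaled CPM of the promoters of the constitutive catalytic subunits PSMB5, PSMB6 and PSMB7, the inducible PSMB8, PSMB9 and PSMB10 and the thymic PSMB11, with 1 point per library and the mean of each group. PSMB10 and PSMB9 stand highest, PSMB8 and PSMB11 lowest, and the groups overlap for every gene but PSMB10.

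The 6 ATPases of the 19S base, PSMC1 to PSMC6, were fitted lower for 3 and higher for 3, with a median log2 fold change of −0.02 and a range of −0.12 to 0.17. PSMC4 was the most open at 32.6 CPM in the control and PSMC1 the least at 7.12. PSMC4 had 31.4 and 33.8 CPM in the control and 31.3 and 35.0 after overexpression, a log2 fold change of 0.01 (SE 0.120). PSMC5 and PSMC6 lay below both controls by small margins, at log2 fold changes of −0.07 and −0.12 with intervals that held 0.

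The 11 non-ATPase subunits of the 19S cap were fitted lower for 10 and higher for 1 (PSMD13, log2 fold change 0.03), with a median of −0.14. Of these, 3 had an unadjusted p under 0.05 and 4 (PSMD2, PSMD3, PSMD6 and PSMD11) had both overexpression libraries below both controls, or 27.3 and 36.4% of the group, against 8.57 and 24.9% of all promoters tested. No member passed after adjustment. Their control levels were of a narrow range, 9.27 to 23.1 CPM, and 8 of the 11 fell in the second highest of 4 equal parts of the promoters tested by mean level, in which 60.6% of all promoters were fitted lower, 8.41% had an unadjusted p under 0.05 in the lower direction and 29.9% had both overexpression libraries below both controls.

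PSMD3, a scaffold subunit of the 19S lid, had counts of 239 and 191 in the control and 62 and 46 after overexpression. Its CPM was 17.0 and 18.4 in the control and 11.6 and 15.8 after overexpression, a log2 fold change of −0.43 (SE 0.162, edgeR adjusted p = 0.125). Both overexpression libraries were lower, the first by far more than the second. The log2 fold change was −0.17 without overexpression replicate 1 and −0.61 without overexpression replicate 2.

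PSMD6, another lid subunit, had 161 and 157 counts in the control and 54 and 27 after overexpression. In CPM these were 11.5 and 15.1 against 10.1 and 9.25, a log2 fold change of −0.42 (SE 0.186, edgeR adjusted p = 0.209). The control libraries stood further apart than the overexpression libraries. The log2 fold change was −0.23 without control replicate 2 and −0.63 without control replicate 1. PSMD2, the large scaffold of the 19S base to which shuttle receptors bind, had 195 and 139 counts in the control and 54 and 33 after overexpression, or 13.9 and 13.4 against 10.1 and 11.3 CPM. Its log2 fold change was −0.38 (SE 0.181, edgeR adjusted p = 0.253), and the groups did not overlap.

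Of the 4 activators, which open the core gate, 2 were fitted lower and 2 higher, with a median log2 fold change of −0.01. PSME2 had 646 and 505 counts in the control and 210 and 110 after overexpression, or 46.0 and 48.5 against 39.1 and 37.7 CPM. Its log2 fold change was −0.29 (SE 0.111, edgeR adjusted p = 0.132), both overexpression libraries were well below both controls, and with loess on abundance the log2 fold change was −0.14. PSME1, its partner in the PA28 ring, had 196 and 175 counts in the control and 91 and 45 after overexpression, a log2 fold change of 0.11 (SE 0.156), and its groups overlapped. The only inhibitor gene, PSMF1, was at 3.06 CPM in the control with counts of 40 and 34, against 12 and 10 after overexpression, and its log2 fold change was −0.19 (SE 0.367).

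The 7 assembly chaperones (PSMG1 to PSMG4 for the core, PSMD5, PSMD9 and PSMD10 for the 19S base) were fitted lower for 4 and higher for 3, with a median log2 fold change of −0.05. Their control levels spanned 1.49 to 46.8 CPM. PSMD9 had 300 and 194 counts in the control and 81 and 52 after overexpression, or 21.4 and 18.7 against 15.1 and 17.8 CPM. Its log2 fold change was −0.33 (SE 0.150, edgeR adjusted p = 0.229), and the groups were separated only narrowly. The log2 fold change was −0.19 without overexpression replicate 1 and −0.21 without control replicate 1. It was −0.42 without overexpression replicate 2 and −0.41 without control replicate 2. PSMD10 had 43.8 and 49.9 CPM in the control and 50.0 and 47.0 after overexpression, a log2 fold change of 0.07 (SE 0.106) with the smallest error of the members. PSMD5 had few counts in its window, 23 and 14 in the control and 9 and 6 after overexpression, and a log2 fold change of 0.26 (SE 0.465). The genes included by symbol alone, PSMC3IP at 17.0 CPM and PSME3IP1 at 33.5 CPM in the control, had log2 fold changes of 0.03 (SE 0.151) and 0.01 (SE 0.118).

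Fold changes across the table moved with level, and proteasome genes are mostly in the upper part. When the promoters tested were split into 4 equal parts by mean level, the medians of the log2 fold change over all promoters were 0.39, 0.13, −0.05 and −0.13 from the lowest to the highest. The 4, 9, 23 and 13 members in these parts had medians of 0.25, 0.05, −0.08 and −0.05. In the third part 16 of 23 members were fitted lower, against 60.6% of all promoters there, and in the highest part 8 of 13 against 79.2%. Both overexpression libraries were below both controls for 6 of 23 and 5 of 13 members, against 29.9 and 50.4% of all promoters in these parts. Across genes, the Spearman correlation of control level and log2 fold change was −0.31 over 49 members and −0.55 over all 23407 promoters, a description only, since the points share libraries and the control level enters both measures. The share of mitochondrial counts and the nuclear depth moved with the groups too, and their part in these values was not tested.

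**Figure D4:**
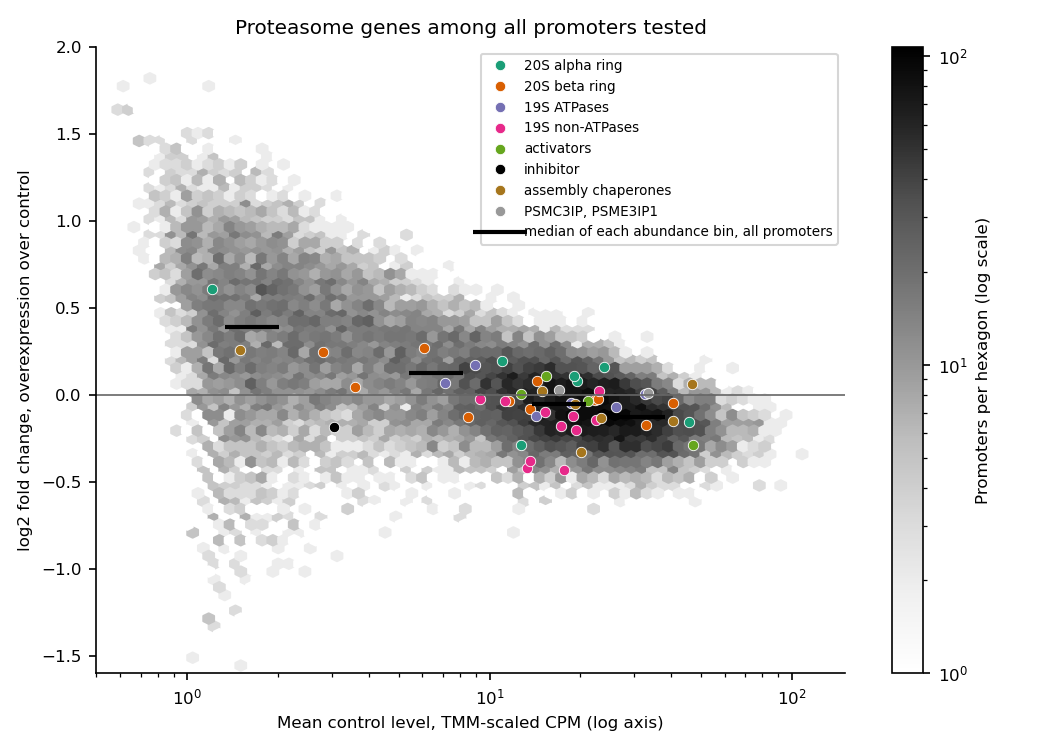
Log2 fold change of overexpression over control against mean control level (TMM-scaled CPM, log axis) for the promoters tested (grey hexagons, darker where more promoters lie; those beyond the axes are not drawn) and the 49 proteasome genes (coloured by role). Black bars are the medians of all promoters in 4 equal parts by level. They descend from 0.39 to −0.13, and the proteasome genes lie inside the cloud of the other promoters.

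Several of these promoters lie next to the start of another gene. Within 2 kb of the listed start of 11 of the 44 members with an entry lay the start of another gene, in all 11 on the opposite strand, and 9 of the neighbours had counts of their own. PSMA2 and MRPL32, a mitochondrial ribosomal protein gene 202 bp away, had 275, 200, 105 and 65 counts against 275, 199, 104 and 65 in the 4 libraries. PSMB9 and TAP1, the peptide transporter subunit of antigen presentation 488 bp away, had 301, 241, 131 and 50 against 302, 241, 133 and 51. PSME2 and RNF31, a subunit of the linear ubiquitin ligase 265 bp away, had 646, 505, 210 and 110 against 650, 506, 211 and 110. Windows of 2 kb around starts this close overlap, so the nearly equal counts of each pair largely come from counting the same fragments. The accessibility of PSME2 therefore cannot be told apart from that of RNF31, nor in the same way PSMA2 from MRPL32 or PSMB9 from TAP1.

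The same held for PSMD9 and HPD (179 bp apart, 300, 194, 81 and 52 counts against 302, 195, 82 and 52), so that 2 of the 5 members with an unadjusted p under 0.05 had such a neighbour. PSMD10 with ATG4A (236 bp), PSMD13 with SIRT3 (45 bp), PSMC5 with FTSJ3 (232 bp), PSME4 with ACYP2 (120 bp) and PSMB8 with its antisense gene PSMB8-AS1 (593 bp) were the other pairs with counts. PSMC4 and PSMD1 had LOC124904720 (194 bp) and LOC112268432 (879 bp) beside them. Without the members in such pairs the median log2 fold change was −0.04.

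Other genes of the ubiquitin-proteasome pathway were followed as a list of 36, all of which were tested. None passed the edgeR threshold, while 7 were lower and 1 (NPLOC4, a VCP cofactor) higher at an unadjusted p under 0.05, which for the lower direction is 19.4% against 8.57% of all promoters tested. Of the 36, 27 (75%) were fitted lower, against 48.6%, and 18 (50%) had both overexpression libraries below both controls, against 24.9%. Their median log2 fold change was −0.13. Of the 36, 18 lay in the highest of the 4 parts by level, where the median of all promoters was also −0.13. The same shares over all promoters there were 23.2, 79.2 and 50.4%. In the next part, which held 12, the median was −0.05 and the shares were 8.41, 60.6 and 29.9%. The part below it, which held 5, had shares of 2.05, 32.9 and 11.9%, and the lowest, which held 1, had 0.67, 21.9 and 7.33%. A background matched to the levels of the whole list was not made. RAD23B, a shuttle receptor that carries ubiquitinated proteins to the proteasome, came nearest to the threshold. It had 611 and 462 counts in the control and 180 and 102 after overexpression, or 43.5 and 44.4 against 33.6 and 35.0 CPM, a log2 fold change of −0.37 (SE 0.115, edgeR adjusted p = 0.0551), just short of it. In edgeR it passed without the filter on low counts (adjusted p = 0.0490), without the mitochondrial promoters (adjusted p = 0.0488) and under scaling by library totals. It did not pass with a minimum of 10 counts (adjusted p = 0.0830), with the replicate block (0.0648), without any 1 library (0.166 to 0.355), with DESeq2 (0.120, or 0.623 without independent filtering) or with loess on abundance, where its log2 fold change was −0.22 (adjusted p = 0.503). The VCP adaptor FAF2 had a log2 fold change of −0.33 (SE 0.114, edgeR adjusted p = 0.0862), which was −0.18 with loess on abundance (adjusted p = 0.614) and −0.54 without overexpression replicate 1. The transcription factor gene NFE2L1 itself had a log2 fold change of 0.02 (SE 0.107).

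All of these changes are relative to the other promoters of each library. When the libraries were scaled by their total counts, mitochondrial counts included, the median of all promoters shifted to −0.78. By this scaling 46 of the 49 members were called lower, with a median of −0.83, where 69.5% of all promoters tested were called lower. The members' median differed from that of all promoters tested by only −0.046. The part of promoter level in the share called was not tested.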

How the data were processed

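ATAC-seq libraries of HEK293T cells were analysed from 1 table of counts, 2 libraries of lipofectamine control and 2 of MORC2 overexpression. The deposited values are raw counts per promoter, identified by Entrez ID. According to the study's methods, the authors trimmed reads with Trim Galore, aligned them with bowtie2 to the CHM13 assembly, kept properly paired, well mapped and non-duplicate fragments, and counted each by its midpoint with csaw. The study defines a promoter as a window of 2 kb around the start site of each annotated gene. Which start was used for a gene with several is not given in the sources used here. The peak lists, made with MACS2, were not used here.

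Of 28775 IDs, 28763 were matched to symbols in RefSeq on GRCh38.p14, used for names, neighbouring starts and promoter sequences only. Counts were filtered with filterByExpr (23407 promoters kept), scaled by TMM on total counts, and tested with edgeR 4.0.16 (quasi-likelihood F-test, R 4.3.3), two-sided, with Benjamini-Hochberg adjustment over all promoters tested and a threshold of 0.05. The 95% intervals are the log2 fold change ± the normal quantile times the SE. Percentiles are by mean control CPM, and levels for the 4 equal parts by edgeR's average log CPM.

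Alternatives were DESeq2 (1.42.0) as test or as size factors, scaling by library totals, loess on abundance (limma 3.58.1, span 0.3), other filters, no mitochondrial promoters, a replicate block and leaving out each library. The scripts were tested on simulated data. The members and lists were chosen with earlier results of these data known. Genes were named by rule: the catalytic and tissue-restricted subunits, members with p under 0.05, the 3 highest and 3 lowest by change and by control level, those left out by the filter or with a neighbouring start, those taken in by symbol, and the 3 other pathway genes with the smallest p, of which 1 is not reported here. PSMA1, PSMA4, PSMC1, PSMC6, PSMD11, PSME1, PSMF1, NFE2L1, NPLOC4 and the motif GAAANNGAA were added after values had been seen. Nothing in the labels says that the libraries came from separate cultures, so p-values measure the spread between these libraries, which may be technical. In edgeR that spread was taken wholly from a trend over all promoters by level, since its estimated prior degrees of freedom were infinite. A promoter's own replicate spread therefore did not enter its edgeR SE, interval or p-value. Same-numbered libraries deviated together with a correlation of only 0.05 over 14976 promoters, so the numbers were not taken as pairs. Replicates differed by more than sampling noise (chi-square per degree of freedom 1.25 in the control and 1.12 after overexpression).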

Additional observations from a re-analysis of the deposited data

How the results depend on the processing

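No member was called under any setting except scaling by library totals, with or without a filter, a block or any 1 library; under library totals 46 were. Over all promoters the count called was 577, and it became 16319 with library totals, 54 with loess on abundance (32 higher, 22 lower), 368 with a minimum of 10 counts per library, 108 with DESeq2, which gave adjusted p-values for 2078 promoters and 6 members, 52 with DESeq2 without independent filtering (added after seeing the data), and 101 to 206 when 1 library was left out (135 without control 1, 206 without control 2, 119 without overexpression 1, 101 without overexpression 2). With the replicate block it was 488, and the block changed no call among the members or the other pathway genes. The cause of these differences was not tested.

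The members' median of −0.03 became −0.83 with library totals and ran from −0.085 (without overexpression 1) to −0.013 (without overexpression 2) when 1 library was left out. Its distance from the median of all promoters, −0.04, became −0.00019 with loess and ran from −0.079 to −0.011 without 1 library. The called count of the other pathway genes went from 0 to 34 with library totals, 1 without the filter and 1 without mitochondrial promoters (RAD23B in both of the latter), and their median from −0.13 to −0.92 with library totals, −0.034 with loess and −0.15 to −0.096 without 1 library. The members' median percentile was 69.8 among all nuclear promoters and 62.7 to 65.9 without 1 library. The ratio of shares was 0.552 of all counts, mitochondrial ones included, and 0.978 to 1.00 without 1 library. Library totals turned PSMA2 (−0.71), PSMB11 (−0.75), PSMB6 (−0.53), PSMC3IP (−0.77), PSMC4 (−0.78), PSMD10 (−0.73), PSMD13 (−0.77) and PSME3IP1 (−0.78) from a fitted rise to a called fall. Of 348 values for 27 named promoters, 290 were unchanged in direction and in being called or not, 18 became called in the same direction, and 32 changed sign without a call. With loess PSME2 became −0.14, PSMD9 −0.26, PSMD2 −0.37, PSMD3 −0.38 and PSMD6 −0.42. Depth limits PSMA6, PSMA8, PSMD5, PSMB8, PSMF1 and PSMB11 most, with SEs of at least 0.326 where tested.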
